A study of Triticum aestivum with 4 samples.

Results

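The uppermost expanded leaves of winter wheat (Triticum aestivum cultivar Shimai 22, wild type) were compared at the jointing stage, when the stem elongates, and at the spring green-up stage, when growth resumes after winter. The comparison takes 2 of the 4 small RNA libraries of a field experiment in Henan, China, in which the untreated crop was sampled at 4 growth stages. At each stage the RNA of 3 biological replicates was mixed before sequencing. There is thus 1 library per stage, and none of the differences below has a replicate check within the sequencing. The paper measured some of its differing miRNAs by quantitative RT-PCR and reports patterns that matched the sequencing wholly or in part. Those measurements were not used here. All 371 names of known plant miRNAs and all 82 miRNAs predicted by the authors were taken, which makes 453 entries. They were chosen for being listed and not for any value. Levels are mapped reads scaled to a common library total (RPM), written TPM here as in the study. A level in whole leaves does not tell more cells with a miRNA from more miRNA per cell, and as the tables hold miRNAs alone, the labelled tissue could not be checked against marker genes. A single read was worth 0.0458 TPM at jointing and 0.0552 TPM at spring green-up.

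Plant miRNAs are cut from hairpin precursors by a Dicer-like enzyme and loaded into Argonaute proteins, where they guide the cleavage or silencing of matching mRNAs. Of the duplex that is cut out, the guide strand is usually kept and the opposite strand, written miRNA*, is mostly lost. Conserved families often act on transcription factors that set the age of the shoot, flowering time and leaf form, while others adjust copper, phosphate and sulfate use or act on resistance genes. Bases 2 to 8, counted from the 5′ end, are called the seed here.

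Several names in the known table carry the same or nearly the same sequence, so that reads of one RNA can be listed under more than 1 name. They are shown first because they set how far a single name can be read. In the sequences below, capitals mark the seed, which is shared within the miR319a-3p and miR319c, the miR6220-5p and miR6224a-5p, and the miR5387 pairs. The miR319 names act in plants on TCP transcription factors of leaf growth. The names miR319a-3p and miR319c have the identical sequence, and miR319b-3p differs from them by 1 mismatch over 21 overlapping bases.
miR319a-3p: cUUGGACUgaagggagcucccu
miR319c: cUUGGACUgaagggagcucccu
miR319b-3p: uUGGACUGaagggugcucccu
miR6220-5p: uCCGUUCCuaaauauaagucu
miR6224a-5p: uCCGUUCCuaaauauaagucu
miR5387a: gUGGCACGaaccggugcuaaaggu
miR5387b: gUGGCACGaaccgguacuaaaggu
miR395a: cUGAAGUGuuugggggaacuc
miR395b: uGAAGUGUuugggggaacuc

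A second set is shown because these names carry the differences described for conserved families. It holds strands of miR172, which acts on AP2-like repressors of flowering, and of miR393, which acts on auxin receptors. It also holds both strands of miR528, a monocot family that acts on copper proteins, and both strands of miR530. The last names are miR164a, miR165a-3p and miR169g, from families that act on NAC, HD-ZIP III and NF-YA transcription factors, and miR2111a-3p. Capitals again mark the seed, and no seed is shared within this set.
miR172a-5p: gCAGCACCaccaagauucaca
miR172e-3p: gGAAUCUUgaugaugcugcau
miR393-5p: uUCCAAAGggaucgcauugau
miR528-5p: uGGAAGGGgcaugcagaggag
miR528a-3p: cCUGUGCCugccucuuccauu
miR530-5p: cUGCAUUUgcaccugcaccua
miR530-3p: aGGUGCAGuggcauaugcaac
miR164a: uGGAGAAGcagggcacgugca
miR165a-3p: uCGCACCAggcaucacucccc
miR169g: uAGCCAAGgaugacuugccugu
miR2111a-3p: gUCCUCGUguugcauucccu

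The last set comes from names that miRBase numbers between miR9652 and miR9783, many of them first found in wheat. It shows the names of this range with large differences in both directions. The hairpin of novel_miR523, a miRNA predicted by the authors, lay on the plus strand of chromosome 3B from 200808871 to 200808997 in the Chinese Spring genome of Ensembl Plants release 31. It holds the sequence of miR9676-5p on its 5p arm and that of novel_miR523 on its 3p arm, and in the hairpin line the capitals mark these 2 strands in place of the seed.
miR9778: uGCAUCAUcucgaacucgucg
miR9675-3p: uUUAUGAUcacucucguuuug
miR9676-5p: uGGAUGUCaucguggccguaca
novel_miR523: uACGGCCUgaugacauccacg
novel_miR523 hairpin: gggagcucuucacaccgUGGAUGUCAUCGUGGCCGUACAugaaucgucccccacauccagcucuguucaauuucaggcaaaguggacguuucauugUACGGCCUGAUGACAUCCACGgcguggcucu

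More known names were higher at jointing than were lower. A name was counted as higher or lower when the libraries differed by more than 2-fold and at least 1 of them had more than 5 TPM, with a listed 0 set to 3 reads. By this rule 97 of the 371 known names were higher at jointing (26.1%) and 35 were lower (9.43%), while 239 met the rule in neither direction. Only the 257 names above 5 TPM in at least 1 library could be called. Lists of abundant names therefore tend to larger shares than all known names. The count rests in part on listed zeros, because 54 of the 97 were listed at 0 at spring green-up and 24 of the 35 were listed at 0 at jointing. Among the 205 names above 0 in both libraries, 43 were higher (21%) and 11 were lower (5.37%). The median log2 ratio of these 205 was 0.08, and 112 of them lay within 1.5-fold. Summed by family, 77 of 290 families were higher at jointing (26.6%) and 26 were lower (8.97%). With 1 library per stage no test across miRNAs was made, and the intervals given below are 95% intervals of counting error only, which compare these libraries and not the stages.

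**Figure D1:**
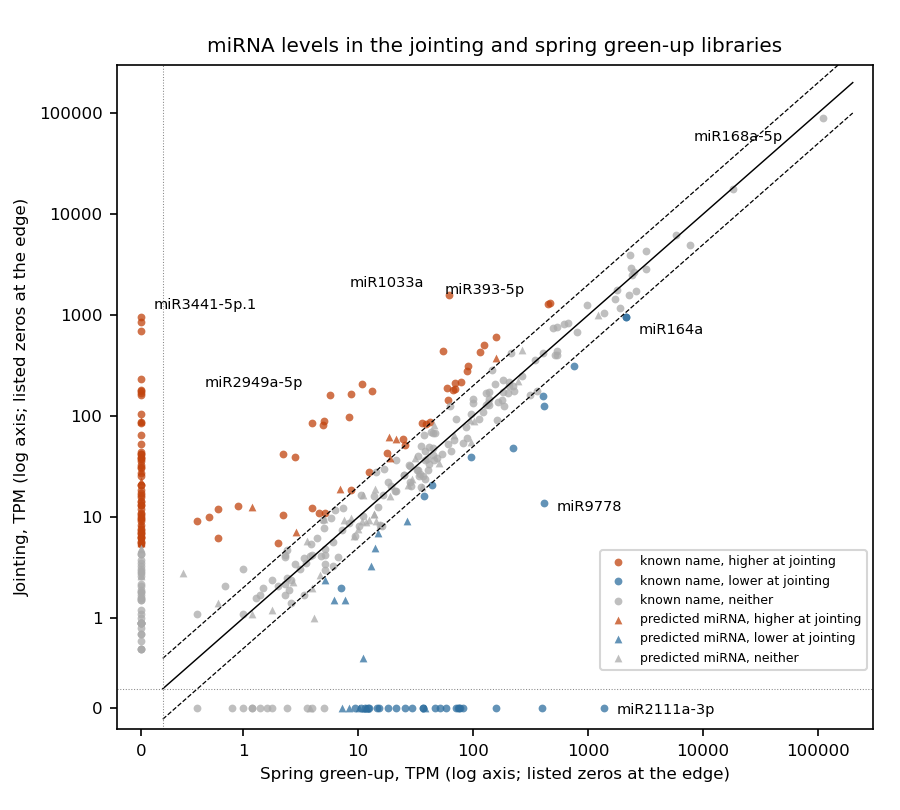
Level of each known name (circles) and predicted miRNA (triangles) in the jointing library (vertical axis, TPM) and the spring green-up library (horizontal axis, TPM), both on log axes with listed zeros drawn at the edge. The solid line marks equal levels and the dashed lines 2-fold differences. Among the known names, 97 were higher and 35 lower at jointing, and 54 and 24 of these sit on the edges where the other library is listed at 0.

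The jointing library listed more names above 0, with 294 known names against 241 at spring green-up. Of these, 89 were above 0 at jointing and 0 at spring green-up, which is 24% of all known names, and 36 were above 0 at spring green-up and 0 at jointing, or 9.7%. Names absent from the other 3 stages were also most frequent at jointing, with 59 known names above 0 at that stage alone. The corresponding counts were 15 at the three-leaf stage, 18 at winter dormancy and 18 at spring green-up. In total level the order was the reverse, with 176416.5 TPM over all known names at jointing and 193668.5 TPM at spring green-up. Of these totals miR168, the family that acts on Argonaute 1, summed to 93544.8 TPM at jointing and 116994.3 TPM at spring green-up. That difference is larger than the difference of the totals, so without miR168 the known names together had the higher total at jointing.

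The most abundant families differed little between the libraries. None of the 5 highest at jointing met the 2-fold rule. The miR159 family, which acts on GAMYB-like transcription factors, had 17875.4 TPM at jointing and 18090.8 TPM at spring green-up. For miR7757 the values were 6141.7 TPM at jointing and 5808.7 TPM at spring green-up. The miR9674 names summed to 4684.9 TPM at jointing and 4168.9 TPM at spring green-up. The miR167 names, which act on auxin response factors, summed to 4539.4 TPM at jointing and 3374.1 TPM at spring green-up. The differences therefore lie mostly below the top of the abundance order, among names of lower level.

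Names of 22 nt had the largest share of higher calls among the length classes of at least 20 names. Of the 58 known names of 22 nt, 21 were higher (36.2%) and 3 lower (5.17%) at jointing, beside 26.1% and 9.43% of all known names. Of the 184 names of 21 nt, the usual length of plant miRNAs, 51 were higher (27.7%) and 15 lower (8.15%), near the shares of all known names. The 93 names of 24 nt, a length that in plants is otherwise typical of small RNAs from repeats, gave 16 higher (17.2%) and 11 lower (11.8%). These shares do not account for how many names of each class were above 5 TPM. Among names above 0 in both libraries, the median log2 ratio was 0.54 for 28 names of 22 nt, 0.11 for 118 names of 21 nt and -0.08 for 43 names of 24 nt. Differences between these classes were not tested.

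Names sharing a sequence gave calls in opposite directions. The name miR319a-3p had 234.1 TPM at jointing and was listed at 0 at spring green-up, and miR319c had 207.2 TPM at jointing and 10.7 TPM at spring green-up. The name miR319b-3p was listed at 0 at jointing and had 58.2 TPM at spring green-up. Summed, the 3 names were higher at jointing, opposite in direction to miR319b-3p. The sum was 441.3 TPM at jointing and 68.9 TPM at spring green-up, a 6.40-fold difference (interval 6.04 to 6.80). In the three-leaf and winter dormancy libraries it was 2474.2 and 462.3 TPM, all listed under miR319b-3p. Spring green-up thus had the lowest sum of the stages, and jointing lay below the three-leaf stage. The pair miR6224a-5p and miR6220-5p is the plainest case, since the listed sequences are identical. The first had 182.5 TPM at jointing and 66.4 TPM at spring green-up, and the second had 48.2 TPM at jointing and 223.1 TPM at spring green-up. Both were called, in opposite directions. With miR5174a, which overlaps them with 2 mismatches, they summed to 402.8 TPM at jointing and 471.2 TPM at spring green-up, and the sum was not called.

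**Figure D2:**
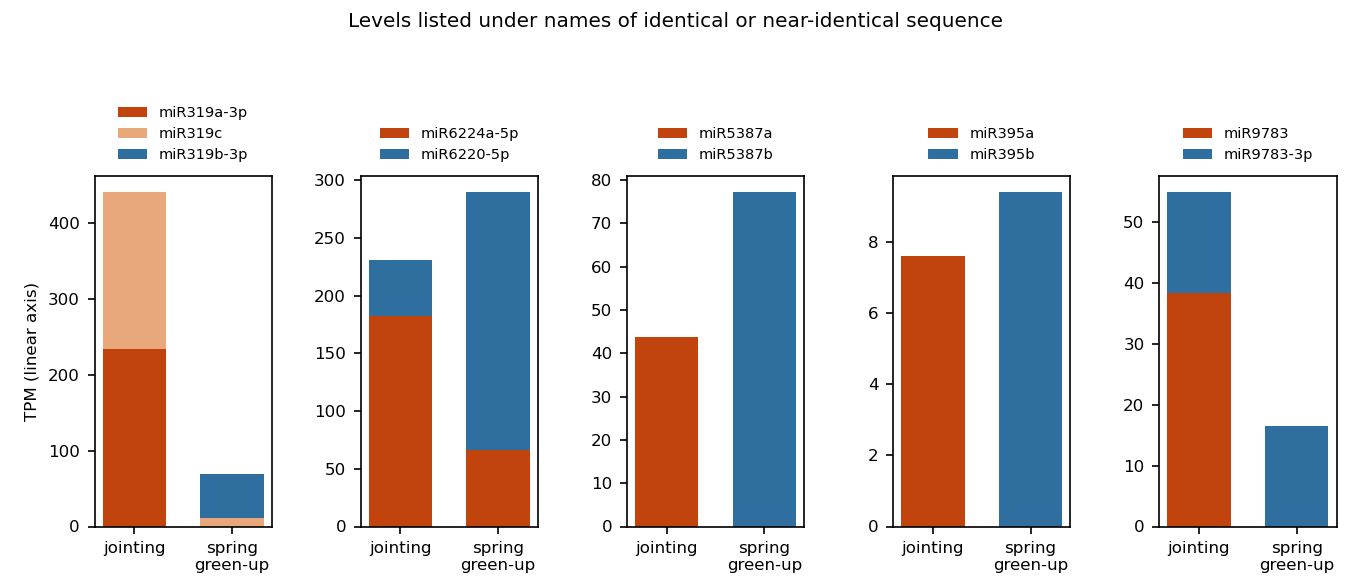
Stacked TPM (linear vertical axis, one scale per panel) of names of identical or near-identical sequence in the jointing library (left bar) and the spring green-up library (right bar). The miR319 bars reach 441.3 TPM at jointing and 68.9 TPM at spring green-up, while in the miR6224a-5p, miR5387 and miR395 panels the colour changes more than the height.

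Further pairs divided in the same way, and others did not. The name miR5387a had 43.7 TPM at jointing and was listed at 0 at spring green-up, and miR5387b, with 1 mismatch over 24 bases, was listed at 0 at jointing and had 77.2 TPM at spring green-up. For the miR395 names, a family that acts on ATP sulfurylases and sulfate transport, miR395a had 7.6 TPM at jointing and 0 at spring green-up, and miR395b had 0 at jointing and 9.4 TPM at spring green-up. Neither sum was called. The pair miR9783 and miR9783-3p, of identical sequence, kept a higher call when summed, with 54.9 TPM at jointing and 16.5 TPM at spring green-up. So did miR8594.2 and miR9569-5p, which share a sequence and had 14.5 and 13.2 TPM at jointing and 0 at spring green-up. Over the whole known table, 70 names fell into 27 groups (an overlap of 18 nt or more, 2 mismatches allowed). Of the 25 called names among them, 15 kept their direction when the group was summed, 8 were no longer called and 2 turned round.

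The 2 names that turned round were miR319b-3p and miR169a-5p. The name miR169a-5p had 7.5 TPM at jointing and was listed at 0 at spring green-up, but its group, led by miR169g, summed to 168.3 TPM at jointing and 404.1 TPM at spring green-up. Among the 8 that were no longer called, miR9493 was listed at 0 at jointing and had 158.0 TPM at spring green-up. Through chained overlaps its group has 8 other names, most of them with the letters CGGAGG or CCUCCG, which are found near the ends of inverted-repeat transposable elements in grasses. That group summed to 1372.6 TPM at jointing and 1693.1 TPM at spring green-up. Of the 370 known names with a listed sequence, 21 (5.68%) held CGGAGG or its reverse complement CCUCCG, and of these 2 were higher and 2 lower at jointing, against 26.1% and 9.43% of all known names. The 15 of them above 0 in both libraries had a median log2 ratio of -0.15.

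Families of shoot age and flowering had more higher than lower names, as had all known names, while the abundant guides of miR156 and miR159 did not meet the rule. Of 16 names in 6 families, 7 were higher at jointing (43.8%) and 2 were lower (12.5%), beside 26.1% and 9.43% over all known names. Of the 16, 13 were above 5 TPM in at least 1 library, as a call needs, against 257 of all 371. The higher names miR319a-3p and miR319c carry 1 sequence and are counted as 2 names. The families counted are miR156 with miR157, miR159, miR172, miR319, miR535 and miR5200. Since miR319 also acts in leaf growth, it could be placed elsewhere, and without it 5 of 12 names were higher and 1 was lower. The miR156 guide strand, which restrains SPL transcription factors in young shoots, had 826.4 TPM at jointing and 673.4 TPM at spring green-up as miR156a-5p, a 1.23-fold difference (interval 1.20 to 1.26). The opposite strand, miR156d-3p, was 3.06-fold higher at jointing (2.87 to 3.25), with 213.1 TPM against 69.7 TPM at spring green-up. Of the miR157 names, miR157d-3p had 18.5 TPM at jointing and 0 at spring green-up, and miR157b-3p had 0 at jointing and 21.2 TPM at spring green-up. The names miR156d-3p, miR157d-3p and miR157b-3p are thus 3p strands with differing directions, while the 5p guide did not meet the rule.

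Both named strands of miR172 were higher at jointing. The 3p strand miR172e-3p, the guide, had 36.3 TPM at jointing and was listed at 0 at spring green-up, and had 8.0 TPM in the three-leaf and 2.3 TPM in the winter dormancy library. The 5p strand miR172a-5p had 97.7 TPM at jointing and 8.4 TPM at spring green-up, an 11.6-fold difference (interval 9.88 to 13.8). The three-leaf library had 13.6 TPM and the winter dormancy library 8.5 TPM, so jointing was the highest of the 4 stages for both. The name miR535a, from a family that acts on SPL genes in rice, had 89.7 TPM at jointing and 5.0 TPM at spring green-up. For miR5200, which in Brachypodium acts on FT-like genes, miR5200a-3p had 437.1 TPM at jointing and 531.2 TPM at spring green-up, and miR5200-5p had 149.2 TPM at jointing and 137.9 TPM at spring green-up. Neither miR5200 strand met the rule.

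Auxin families had 3 of 8 names higher (37.5%) and none lower, where 26.1% and 9.43% of all known names were. All 8 were above 5 TPM in at least 1 library, as a call needs. Only 257 of the 371 known names were, and of those 97 were higher and 35 lower. Set against those 257, the auxin names did not stand out in higher calls. The higher ones include the opposite strands miR393b-3p and miR390-3p. The miR393 guide strand, which acts on the TIR1/AFB auxin receptors, had 1273.7 TPM at jointing and 451.3 TPM at spring green-up, a 2.82-fold difference (interval 2.75 to 2.89). Its opposite strand miR393b-3p moved with it, with 10.9 TPM at jointing and 4.6 TPM at spring green-up, although its interval (1.85 to 3.10) spans 2-fold. Both strands were at their highest of the 4 stages at jointing. The auxin response factor families did not meet the rule. The miR160a-5p level was 763.6 TPM at jointing and 535.2 TPM at spring green-up, and that of miR167a was 4312.8 TPM at jointing and 3190.6 TPM at spring green-up. For miR390, which starts the production of trans-acting siRNAs against auxin response factors, miR390a-5p had 36.6 TPM at jointing and 21.2 TPM at spring green-up, and the opposite strand miR390-3p was higher, with 10.4 TPM against 2.2 TPM at spring green-up.

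Leaf and meristem families had names in both directions. Of 27 names in the families miR164, miR165 with miR166, miR169, miR170 with miR171, miR394, miR396 and miR444, 5 were higher (18.5%) and 6 lower (22.2%), beside 26.1% and 9.43% of all known names. With the miR319 names added the counts were 7 higher and 7 lower of 31. The 11 above 0 in both libraries had a median log2 ratio of -0.37, beside 0.08 over all 205 such names. The name miR164a, from the family that limits NAC genes of organ boundaries and leaf ageing, had 952.5 TPM at jointing and 2130.8 TPM at spring green-up. It was 2.24-fold lower at jointing (interval 2.20 to 2.28). The name miR165a-3p, from the family that patterns the upper and lower leaf face through HD-ZIP III genes, had 963.0 TPM at jointing and 2133.1 TPM at spring green-up, or 2.22-fold lower (2.18 to 2.25). The miR169g level was 158.9 TPM at jointing and 404.1 TPM at spring green-up, 2.54-fold lower (2.44 to 2.65). These 3 are guide strands, and each had at jointing its lowest value of the 4 stages. The values of miR164a and miR165a-3p lay within 1.09% of each other at all 4 stages although their sequences match at only 6 of 21 positions, and whether one entry of the deposited table repeats the other was not tested. Counted once, the pair leaves 5 higher and 5 lower of 26 names.

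The other abundant members of that group did not meet the rule. The level of miR396b-5p, which acts on growth-regulating factors, was 1442.6 TPM at jointing and 1706.2 TPM at spring green-up. For miR171a-3p, which acts on GRAS genes, it was 1183.4 TPM at jointing and 1881.1 TPM at spring green-up, and for miR171b it was 2491.7 TPM at jointing and 2406.6 TPM at spring green-up. The monocot name miR444b.1, which acts on MADS-box genes, had 1055.3 TPM at jointing and 1363.8 TPM at spring green-up. Minor names of the same families went both ways. The name miR169b-3p had 103.9 TPM at jointing and 0 at spring green-up, and miR169o-3p had 0 at jointing and 47.0 TPM at spring green-up. Of the minor miR396 names, miR396e-5p, miR396b-3p and miR396-5p were higher and miR396c-3p was lower, all below 25 TPM.

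Copper families were higher at jointing in 5 of 8 names (62.5%) and lower in none, beside 26.1% and 9.43% of all known names. Of the 8, 7 were above 5 TPM in at least 1 library, as a call needs, against 257 of all 371. The miR528-5p guide had 426.7 TPM at jointing and 114.4 TPM at spring green-up, a 3.73-fold difference (interval 3.56 to 3.91), and the opposite strand miR528a-3p had 81.7 TPM at jointing and 4.9 TPM at spring green-up, a 16.7-fold difference (13.4 to 20.8). The ratio of the 5p to the 3p strand was thus 5.22 at jointing and 23.3 at spring green-up. For miR398, which acts on Cu/Zn superoxide dismutases, the 5p strand miR398f-5p was 3.19-fold higher, with 189.9 TPM at jointing against 59.6 TPM at spring green-up. The guide miR398a-3p had 170.6 TPM at jointing and 129.7 TPM at spring green-up and did not meet the rule. The name miR397-3p, with 31.7 TPM at jointing and 0 at spring green-up, was also higher. So was miR408d, with 5.6 TPM at jointing and 2.0 TPM at spring green-up, although its interval (1.93 to 4.20) spans 2-fold. The name miR397a, from the laccase family, was not, with 51.1 TPM at jointing and 34.9 TPM at spring green-up. The 4 families together summed to 957.3 TPM at jointing and 345.5 TPM at spring green-up.

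The phosphate families miR399 and miR827 were higher at jointing. The name miR399b, which acts on the PHO2 regulator of phosphate uptake, had 276.8 TPM at jointing and 88.9 TPM at spring green-up, a 3.11-fold difference (interval 2.95 to 3.29). The name miR827, which acts on SPX-domain proteins, had 310.7 TPM at jointing and 89.8 TPM at spring green-up, a 3.46-fold difference (3.28 to 3.65). In the opposite direction stood miR2111a-3p, from a family tied to phosphate and nodulation signalling, which was listed at 0 at jointing and had 1385.5 TPM at spring green-up. In the libraries of the other 2 stages it was listed at 0 as well, so this value stands in 1 library alone. The other name of its family, miR2111a, was listed at 0 at spring green-up and had 0.9 TPM at jointing. With the miR395 names given above, 3 of the 6 nutrient names were higher and 2 lower, against 26.1% and 9.43% of all known names.

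**Figure D3:**
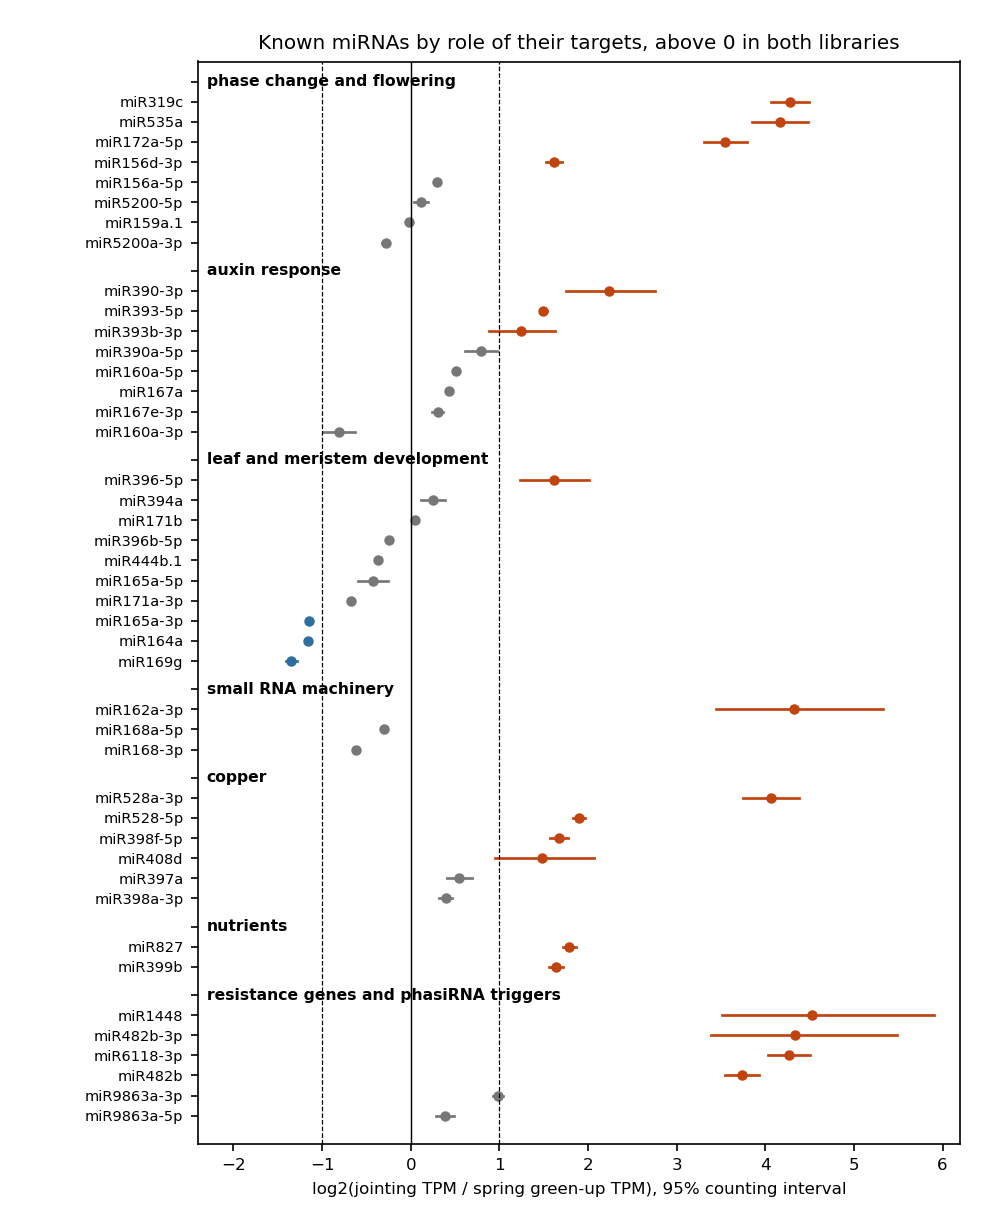
Log2 ratio of jointing over spring green-up for list members above 0 in both libraries and above 5 TPM in at least 1, grouped by the role of their targets. Points are ratios, bars are 95% counting intervals, dashed lines mark 2-fold, and orange, blue and grey mean higher, lower and neither. The miR528 and miR393 strands lie right of the upper 2-fold line or across it, and miR164a, miR165a-3p and miR169g lie left of the lower one.

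The 2 strands of a family often differed by unequal amounts. In 16 families with 1 name per arm, both above 0 in both libraries, the strands had ratios on the same side of 1 in 11 and on different sides in 5. In 7 of the 16 they differed by more than 1 on the log2 scale. The 5 and the 7 both include miR6224, whose 5p name shares its sequence with miR6220-5p, a name called in the opposite direction. Summed with its overlapping names, miR6224a-5p had 402.8 TPM at jointing and 471.2 TPM at spring green-up. That ratio is below 1, as is that of miR6224a-3p. The 5p strand of miR530 was 2.82-fold higher at jointing, with 1316.3 TPM against 467.0 TPM at spring green-up, and its 3p strand had 1254.7 TPM at jointing and 987.2 TPM at spring green-up. For miR160 the guide was above and the opposite strand below its spring green-up level, since miR160a-3p had 19.9 TPM at jointing and 34.9 TPM at spring green-up. For miR9652, the 5p strand was 2.39-fold lower, with 316.0 TPM at jointing and 755.7 TPM at spring green-up, and the 3p strand had 26.1 TPM at jointing and 25.3 TPM at spring green-up. Names of a family can come from several precursors, so 2 names need not be strands of 1 hairpin.

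Families that act on resistance genes or start the production of phased siRNAs had more higher than lower names, as had all known names. Of 11 names in 6 families, 6 were higher (54.5%) and 1 was lower (9.09%), beside 26.1% and 9.43% of all known names. Of the 11, 9 were above 5 TPM in at least 1 library, against 257 of all 371. The lower one was miR2118c, with 0 at jointing and 11.4 TPM at spring green-up. The name miR482b, from a family that acts on NLR resistance genes, had 176.0 TPM at jointing and 13.2 TPM at spring green-up, and miR2118, which overlaps it by 20 bases with 2 mismatches, had 87.8 TPM at jointing and 0 at spring green-up. Summed, the pair had 263.8 TPM at jointing and 13.2 TPM at spring green-up. The miR2118a-3p level was 86.2 TPM at jointing and 0 at spring green-up, and that of miR6118-3p was 167.2 TPM at jointing and 8.7 TPM at spring green-up. The barley-type miR9863a-3p, which acts on Mla-type resistance genes in barley, had 424.2 TPM at jointing and 214.8 TPM at spring green-up, a 1.97-fold difference (interval 1.90 to 2.05) that did not meet the rule. Both miR2275 names, a family known from grass anthers, were listed at 0 in both libraries. At the earlier stages, however, miR2275b-5p had 1568.0 TPM in the three-leaf and 1831.5 TPM in the winter dormancy library.

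Among names above 0 in both libraries and above 50 TPM in at least 1, the steepest difference upward was that of miR2949a-5p. It had 160.2 TPM at jointing and 5.7 TPM at spring green-up, a 28.1-fold difference (interval 23.2 to 34.6). For miR1033a the levels were 1563.3 TPM at jointing and 62.1 TPM at spring green-up, 25.2-fold higher (23.7 to 26.7), and for miR2947 they were 86.2 TPM at jointing and 4.0 TPM at spring green-up. The next were miR319c, miR6118-3p, miR535a, miR528a-3p, miR482b and miR172a-5p, described above. The tenth was miR9774, with 443.7 TPM at jointing and 55.1 TPM at spring green-up. For miR9774 spring green-up was the lowest of the 4 stages, against 269.5 TPM in the three-leaf and 155.6 TPM in the winter dormancy library, whereas miR2949a-5p had at most 1.3 TPM before spring green-up.

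The names miR2947 and miR2949a-5p belong to 28 names that miRBase holds from cotton. These are described together because most were listed in the jointing library, as were 294 of all 371 known names. Since the jointing values were seen before the names were grouped, the counts below describe the set and are no independent support. Of the 28, 10 were higher at jointing (35.7%) and 2 lower (7.14%), beside 26.1% and 9.43% of all known names. Of the 28, 17 were above 0 at jointing and 0 at spring green-up and 2 the other way round, against 89 and 36 of all 371. The 7 above 0 in both libraries had a median log2 ratio of 3.85, and 4 of them were higher. Their summed level was 471.4 TPM at jointing and 518.1 TPM at spring green-up, where miR8742a alone had 397.5 TPM. Whether reads of another plant are among those listed at jointing was not tested.

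Downward, the steepest difference was that of miR9778. It had 13.9 TPM at jointing and 414.2 TPM at spring green-up and was 29.8-fold lower (interval 26.6 to 33.6), and the three-leaf and winter dormancy libraries had 618.0 and 753.1 TPM. The next was miR6220-5p, which shares its sequence with miR6224a-5p. The name miR9675-3p had 126.6 TPM at jointing and 411.2 TPM at spring green-up, 3.25-fold lower (3.11 to 3.39), and miR2876-5p had 39.8 TPM at jointing and 96.4 TPM at spring green-up. From the second in order on, these folds were smaller than those upward, and that of miR165a-3p, eighth in order, was 2.22-fold. Both names after it, miR1023a-3p with 179.2 TPM at jointing and 356.1 TPM at spring green-up and miR8175 with 163.3 TPM at jointing and 310.2 TPM at spring green-up, did not meet the rule.

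**Figure D4:**
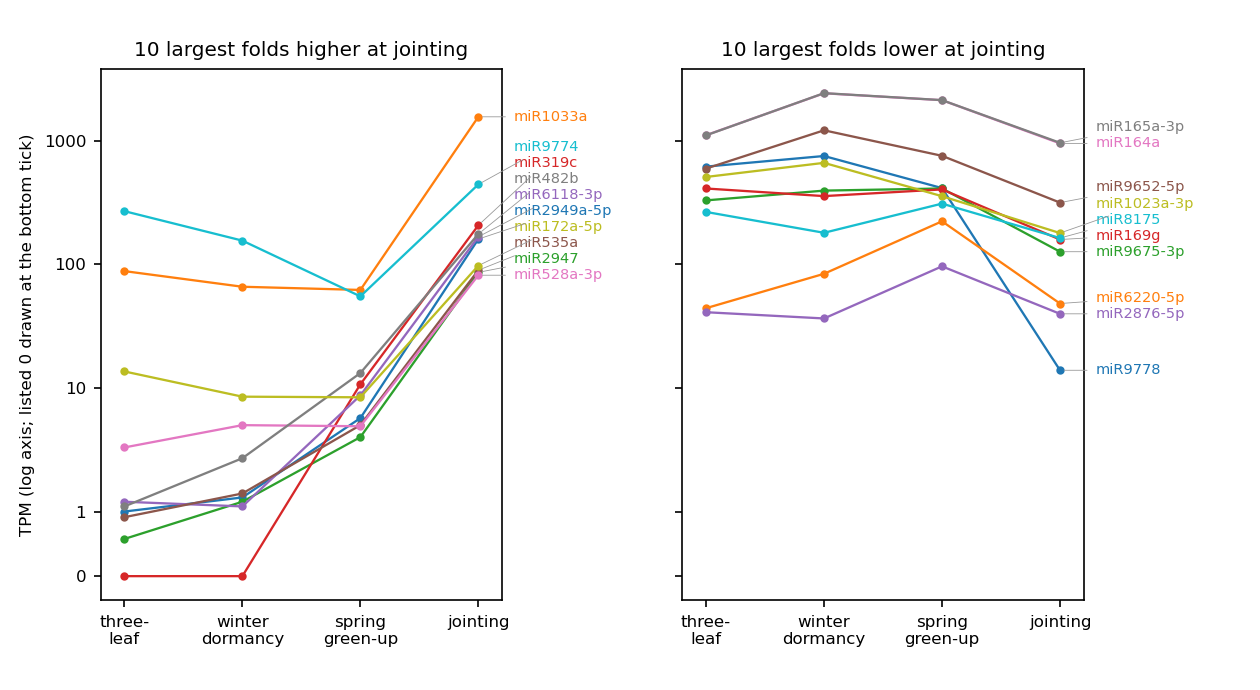
TPM at the 4 growth stages (log axis, a listed 0 at the bottom tick) of the 10 known names with the largest folds higher (left) and lower (right) at jointing, among those above 0 in both libraries and above 50 TPM in at least 1. Each line is a name and each point 1 library. The line of miR9778 drops to 13.9 TPM at jointing against 414.2 TPM or more at every earlier stage, and the lines of miR164a and miR165a-3p coincide.

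Levels at the earlier stages show which library set a difference apart. Of the 97 known names higher at jointing, 81 had at jointing a value above all 3 other stages and 24 had at spring green-up a value below all 3. Of the 35 lower names, 16 had at jointing a value below all 3 other stages and 21 had at spring green-up a value above all 3. A 0 shared with another stage does not count as below. Such zeros matter, since 54 of the 97 were listed at 0 at spring green-up and 24 of the 35 at jointing. Thus higher names mostly stood out in the jointing library, while the lower names divided more evenly. Examples of the first kind among the names listed at 0 at spring green-up were miR3441-5p.1 with 957.6 TPM at jointing, miR5240 with 844.4 TPM and miR8135 with 688.4 TPM, each at 0 in the 3 other libraries. The name miR952b, in contrast, had 175.7 TPM at jointing and 165.9 TPM at winter dormancy, and 0 at spring green-up.

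The remaining high names with a listed 0 followed both patterns. At spring green-up, 0 was listed for miR3440b-3p with 180.5 TPM at jointing, for miR7532a with 170.9 TPM and for miR7767-5p with 161.2 TPM. Of these, miR7767-5p had 312.9 TPM at the three-leaf stage. At jointing, 0 was listed for miR8030-5p with 81.9 TPM at spring green-up, for miR5303c with 73.5 TPM, for miR7697-5p with 70.8 TPM and for miR3627a with 51.2 TPM. Of these, miR7697-5p overlaps miR1127a by 20 bases with 1 mismatch. Together with miR1133, these names summed to 439.6 TPM at jointing and 622.8 TPM at spring green-up, and the sum was not called. The name miR9748 had 0 at jointing and 75.4 TPM at spring green-up, and miR394b-3p, which overlaps it by 18 bases with 0 mismatches, had 0 at jointing and 29.5 TPM at spring green-up. The names miR8030-5p, miR5303c, miR3627a, miR9748 and miR394b-3p were above 0 at spring green-up alone. No fold is given for any of them, since the number of reads behind a listed 0 is unknown.

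Names numbered from miR9652 to miR9783 had differences in both directions. They were taken by number alone, so names first found in other plants, such as the soybean names miR9748 and miR9760, are among them. Of 47 names in 37 families, 9 were higher (19.1%) and 6 lower (12.8%), beside 26.1% and 9.43% of all known names. The 38 above 0 in both libraries had a median log2 ratio of 0.41. The highest of the 9 was miR9676-5p, with 602.5 TPM at jointing and 159.0 TPM at spring green-up, a 3.79-fold difference (interval 3.64 to 3.95). The other strand of its hairpin, novel_miR523, had 377.8 TPM at jointing and 159.5 TPM at spring green-up, 2.37-fold higher (2.27 to 2.47). At the earlier stages miR9676-5p had 67.8 TPM in the three-leaf and 63.4 TPM in the winter dormancy library, and novel_miR523 had 52.3 and 87.5 TPM. Both strands thus had at jointing their highest value, and their order between the 2 earlier stages differed. The name miR9653b had 506.6 TPM at jointing and 124.4 TPM at spring green-up, and miR9653a-3p had 219.3 TPM at jointing and 78.4 TPM at spring green-up. Abundant names of the range that did not meet the rule were miR9672b, with 3917.5 TPM at jointing and 2333.4 TPM at spring green-up, miR9662a-3p, with 1570.3 TPM at jointing and 2269.0 TPM at spring green-up, and miR9773, with 1713.1 TPM at jointing and 2631.6 TPM at spring green-up.

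Of the others in that range, miR9654b-3p, miR9656-3p, miR9668-5p and miR9760 were also higher and miR9661-5p and miR9663-5p also lower. The name miR9668-5p had 52.6 TPM at jointing and 0 at spring green-up, and it overlaps miR6228-3p by 21 bases with 0 mismatches. Summed, the pair had 82.1 TPM at jointing and 40.4 TPM at spring green-up, and the interval (1.86 to 2.22) spans 2-fold. A further 6 names were taken as fragments of tRNA or rRNA, which was not checked by alignment. Of these, miR2916 was higher (16.7%, beside 26.1% of all known names), with 145.9 TPM at jointing and 60.8 TPM at spring green-up. The other 5 did not meet the rule. Of the small RNA machinery families, miR168a-5p had 88561.2 TPM at jointing and 109365.5 TPM at spring green-up. The name miR162a-3p, from the family that acts on Dicer-like 1, had 12.0 TPM at jointing and 0.6 TPM at spring green-up. It was the only one of the 4 names that met the rule, a share of 25%, near the 26.1% of all known names.

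The predicted miRNAs were called about equally in both directions. Of the 82, 16 were higher at jointing (19.5%) and 15 lower (18.3%), and 9 of the 16 and 7 of the 15 rest on a listed 0. Among the 52 above 0 in both libraries, 7 were higher (13.5%) and 8 lower (15.4%), with a median log2 ratio of -0.25. Of those with a sequenced miRNA*, 12 were higher and 12 lower, out of 55. Of the 31 called in either direction, 22 precursors lay on a named chromosome. Of the 16 higher ones, 12 had their highest value of the 4 stages at jointing, and 12 of the 15 lower ones had a jointing value below all 3 other stages.

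**Figure D5:**
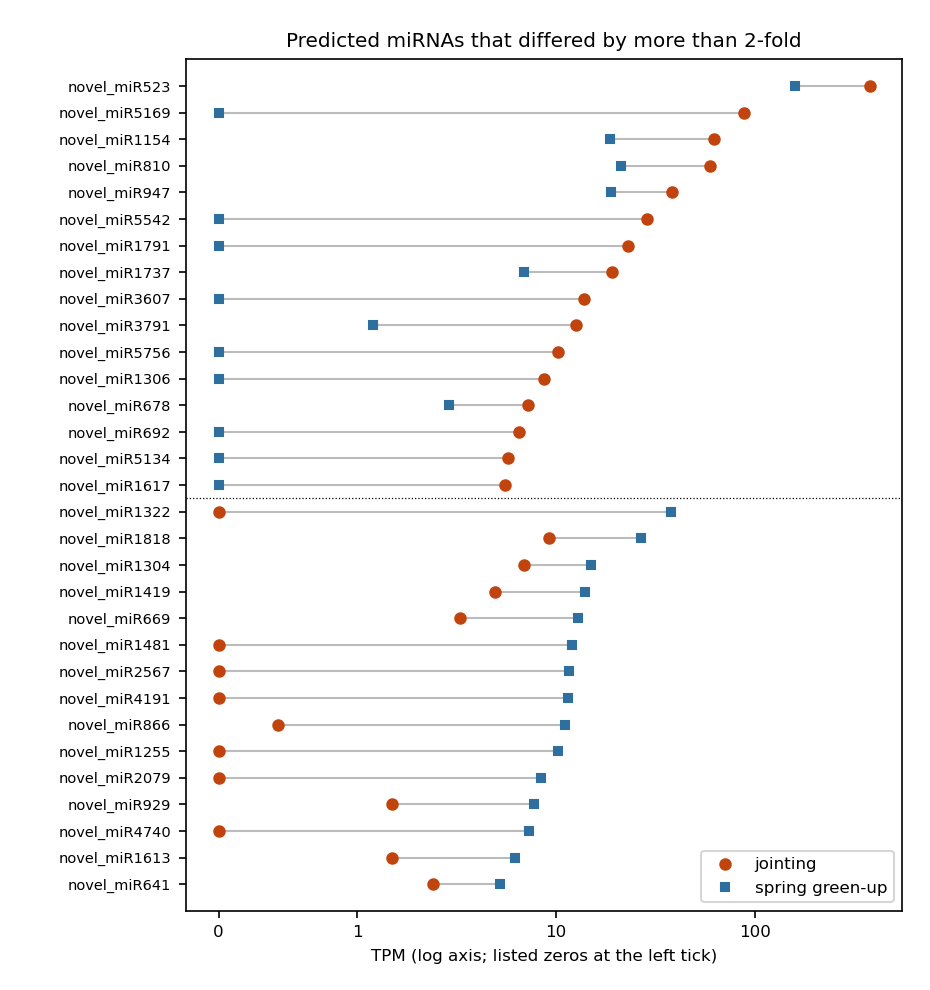
TPM (log axis, listed zeros at the left tick) of the predicted miRNAs that differed by more than 2-fold, with jointing as circles and spring green-up as squares. The 16 above the dotted line were higher at jointing and the 15 below it were lower, and novel_miR523 is the only one above 100 TPM in either library.

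Few predicted miRNAs with a difference were abundant. After novel_miR523, the next at jointing was novel_miR5169 on the plus strand of chromosome 3D, with 88.6 TPM at jointing and 0 at the 3 other stages. The level of novel_miR1154, from the plus strand of chromosome 5D, was 62.2 TPM at jointing and 18.7 TPM at spring green-up, a 3.33-fold difference (interval 2.95 to 3.76). For novel_miR810, from chromosome 4A, it was 59.3 TPM at jointing and 21.3 TPM at spring green-up, and for novel_miR947, from chromosome 4D, it was 38.1 TPM at jointing and 18.9 TPM at spring green-up, where the interval (1.77 to 2.29) spans 2-fold. The names novel_miR5542, with 28.6 TPM at jointing, and novel_miR1791, with 23.0 TPM, were listed at 0 at spring green-up. The last named by level were novel_miR1737 with 19.1 TPM at jointing and 6.9 TPM at spring green-up, novel_miR3607 with 13.8 TPM at jointing and 0 at spring green-up, and novel_miR3791 with 12.6 TPM at jointing and 1.2 TPM at spring green-up. The remaining 6 higher ones had 5.5 to 10.2 TPM at jointing. Of these, novel_miR5756 and novel_miR1306 overlap novel_miR3791, and the 3 summed to 31.5 TPM at jointing and 1.2 TPM at spring green-up.

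The lower predicted miRNAs were less abundant still. The highest, novel_miR1322 from the minus strand of chromosome 6B, was listed at 0 at jointing and had 37.8 TPM at spring green-up, beside 41.0 and 44.0 TPM in the three-leaf and winter dormancy libraries. The name novel_miR866, from the plus strand of chromosome 4B, had 0.4 TPM at jointing and 11.1 TPM at spring green-up, and its 27.8-fold difference has a wide interval (13.9 to 59.7). For novel_miR1818 the values were 9.2 TPM at jointing and 26.8 TPM at spring green-up, for novel_miR1304 they were 6.9 TPM at jointing and 14.9 TPM at spring green-up, for novel_miR1419 they were 4.9 TPM at jointing and 13.9 TPM at spring green-up, and for novel_miR669 they were 3.3 TPM at jointing and 12.9 TPM at spring green-up. The other 4 of the 10 highest, novel_miR1481, novel_miR2567, novel_miR4191 and novel_miR1255, were listed at 0 at jointing and had 10.2 to 12.0 TPM at spring green-up.

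Predicted hairpins held the sequences of known names in 13 cases, which pairs some entries of the tables. In the hairpin of novel_miR1255, on chromosome 6A, the opposite arm carries miR396b-5p, the abundant guide, and miR396c-3p lies on the same arm as novel_miR1255. The names novel_miR1255 and miR396c-3p were both listed at 0 at jointing, with 10.2 and 14.7 TPM at spring green-up, while miR396b-5p did not meet the rule. The hairpin of novel_miR692, on chromosome 3B, carries miR398a-3p. The value of novel_miR692 was 6.5 TPM at jointing and 0 at spring green-up, and that of miR398a-3p was as given above. The hairpin of novel_miR259 carries miR1432-5p, which was 2.13-fold higher with 83.4 TPM at jointing and 39.1 TPM at spring green-up, and novel_miR259 itself had 16.2 TPM at jointing and 19.1 TPM at spring green-up. In 2 of 16 such pairs both names were called in the same direction.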

How the data were processed

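Small RNA of the top leaves was sequenced by the authors, who mixed the RNA of 3 biological replicates into 1 library per stage. Reads matching plant miRNAs of miRBase release 21 were named as known, with fewer than 2 mismatches per their methods and up to 2 by another passage of the study, and others were predicted from the wheat genome of Ensembl Plants release 31. The authors deposited RPM (per mapped read total), which they call TPM, rounded to 1 decimal, so small values are coarse. Sequences of known names came from the study's supplementary table. Repeated entries of miR531 and of miR5050, equal in value, were counted once (373 entries, 371 names). The name miR5050 has no single sequence.

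Reads were estimated from the values and the library totals. Listed zeros were set to 3 reads. Calls needed more than 2-fold and more than 5 TPM in at least 1 library. At jointing 5 TPM rests on 109 reads, with an exact Poisson interval of 4.10 to 6.02 TPM. Intervals of ratios are exact conditional (Clopper-Pearson) intervals at 95%. PCR copies are not independent molecules, so they cover counting error only. Calculations were tested on simulated data, in Python 3.11.15 with numpy 2.4.6, pandas 2.3.3, scipy 1.17.1 and matplotlib 3.10.9.

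Names were given for members of role lists above 5 TPM (partly as counts), the 10 largest folds each way above 50 TPM, the 10 highest each way with a listed 0, up to 10 predicted miRNAs each way, and names sharing sequence with a called one. The lists, rules and members were chosen with earlier results of these data known. No genome was used, so known sequences were not placed on chromosomes.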

Additional observations from a re-analysis of the deposited data

How the results depend on the processing

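With a level of more than 50 TPM in place of 5, 41 known names were higher and 18 lower, 34 families were higher and 15 lower, and 4 predicted miRNAs were higher and 0 lower. With listed zeros treated as missing, 43 known names were higher and 11 lower, 37 families were higher and 12 lower, and 7 predicted miRNAs were higher and 8 lower. Under the other alternatives every count stayed within 1.5 times: a pseudocount of 1 or 0.1, no level filter, 3 scalings, a fold of 3, an interval wholly past 2-fold, an exact two-sided conditional binomial p under 0.01 added, and summing of overlapping sequences, which was run for known names and predicted miRNAs and not for families. Of the counts recomputed with miR319 under leaf and meristem development or with miR164a and miR165a-3p counted once, both chosen after seeing the data, the lower flowering names moved past 1.5 times, to 1 in place of 2. Scaling by all listed miRNAs moved every log2 ratio by 0.13, and without miR168 by -0.11. When overlapping sequences were summed, the log2 ratio turned to -1.26 for miR169a-5p, 2.68 for miR319b-3p, -0.31 for miR395a, -0.82 for miR5387a and -0.23 for miR6224a-5p, by the construction of the sums. No paired analysis was possible because each stage has 1 library. Depth limits little at 5 TPM, but the pooled libraries hold no spread between plants.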

Other observations

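The levels of miR164a and miR165a-3p nearly coincided in every library, although their sequences match at only 6 of 21 positions from the 5′ end. In the order three-leaf, winter dormancy, spring green-up and jointing, miR164a had 1110.5, 2422.5, 2130.8 and 952.5 TPM and miR165a-3p had 1107.0, 2429.2, 2133.1 and 963.0 TPM. The largest difference was 1.09%. Among the 72 known names above 50 TPM at all 4 stages, which form 2556 pairs, this was the only pair within 3% at all 4. The origin of the likeness was not tested.

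The name miR161.2 had 39.7 TPM at jointing and 0 at spring green-up, and miR391-5p had 42.0 TPM at jointing and 0 at spring green-up, with 12.8 and 9.9 TPM at the three-leaf stage. Both belong to families best known from Arabidopsis.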
